A study of Mus musculus with 2 samples.

Results

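Flow-responsive endothelial genes are genes whose RNA in the vessel lining depends on the drag of the blood stream, and 7 of them, of 27998 genes in the deposited tables, are described here: Klf2, Klf4, Nos3, Thbd, Klk10, Klk11 and Cytl1. They were chosen by their levels and their shares of positive cells in blood endothelial cells (the class BEC of the authors' annotation) in both libraries, in lymphatic endothelial cells (LEC) and in the other annotated classes. Those values are therefore a description of the list and support nothing. The study compared the abdominal aorta of wild-type C57BL/6J mice given LCWE, a cell wall extract of Lactobacillus casei that sets off a vasculitis used as a model of Kawasaki disease, with that of mice given PBS. The LCWE library came from 7 aortas pooled and the PBS library from 9, all taken 2 weeks after injection. The age and sex of the mice are not given in the labels. The tissue was digested enzymatically, dead cells were removed and 10x Genomics 3′ libraries were made, so the pools hold all cells that survived this. With 1 pooled library in a group there is no spread between animals and no test. Every interval below is a 95% interval that covers counting error only.

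Blood flowing steadily along a vessel presses on sensors of the endothelial cell, and a kinase cascade that ends in MEF2 transcription factors switches on Klf2 and Klf4. These zinc finger factors in turn raise genes that keep the vessel open and the blood fluid, among them Nos3 and Thbd, while disturbed flow at bends and branches lowers them and favours adhesion and inflammatory genes. The kallikrein gene Klk10 is also known to be high in arteries under steady flow. Klf2 and Klf4 respond quickly to handling of cells as well, as immediate early genes do.

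The members lie at 6 places of the mouse genome (GRCm38, GENCODE vM21), since the kallikreins Klk11 and Klk10 are neighbours. Klf2 lies at chr8:72319033-72321656 on the plus strand, Klf4 at chr4:55527143-55532466 on the minus strand, and Nos3 at chr5:24364810-24384474 on the plus strand. Thbd lies at chr2:148404466-148408188 on the minus strand and Cytl1 at chr5:37735519-37739820 on the plus strand. Klk11 lies at chr7:43774604-43779263 and Klk10 at chr7:43781035-43785410, both on the plus strand with 1771 bases between them. Klk9 and Klk8 follow on the same strand, with Klk8 at chr7:43797577-43803826. Klk10 and Klk11 overlap 2310002F09Rik, and Nos3 overlaps Atg9b and Gm15587, all annotated on the other strand. Whether the counting used strand is not given in the sources used here, so reads of such partners cannot be told apart. Atg9b had 5 and 3 UMIs in BEC of the LCWE and the PBS library, and 2310002F09Rik is not a row of the tables.

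Promoter sequences matched 5 of the 7 genes in RefSeq (GRCm38.p6), not Nos3 and Thbd. Those of Klf2, where the cascade above ends, and of the 3 members with the largest difference between the libraries are shown from 250 to 31 bases before the RefSeq start, 220 bases each. Capitals mark matches to the MEF2 consensus and to CACCC or its reverse complement GGGTG, the core of sites that KLF factors bind, searched on both strands; no match of one motif overlapped the other.
Klf2, chr8:72318812-72319031, plus strand: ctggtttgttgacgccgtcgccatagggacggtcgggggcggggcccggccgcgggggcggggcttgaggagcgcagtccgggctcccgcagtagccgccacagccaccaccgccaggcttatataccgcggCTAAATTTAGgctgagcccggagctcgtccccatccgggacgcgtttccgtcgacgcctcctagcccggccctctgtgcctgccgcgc
Klk10, chr7:43780804-43781023, plus strand: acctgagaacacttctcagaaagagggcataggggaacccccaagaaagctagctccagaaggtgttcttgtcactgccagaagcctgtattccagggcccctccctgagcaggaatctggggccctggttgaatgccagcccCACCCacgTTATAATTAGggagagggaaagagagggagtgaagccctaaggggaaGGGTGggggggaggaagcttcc
Klk11, first of the RefSeq starts, chr7:43774367-43774586, plus strand: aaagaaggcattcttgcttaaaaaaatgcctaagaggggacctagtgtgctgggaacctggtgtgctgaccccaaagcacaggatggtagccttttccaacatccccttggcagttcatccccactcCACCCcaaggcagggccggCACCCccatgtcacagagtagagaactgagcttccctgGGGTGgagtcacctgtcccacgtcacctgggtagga
Cytl1, chr5:37735269-37735488, plus strand: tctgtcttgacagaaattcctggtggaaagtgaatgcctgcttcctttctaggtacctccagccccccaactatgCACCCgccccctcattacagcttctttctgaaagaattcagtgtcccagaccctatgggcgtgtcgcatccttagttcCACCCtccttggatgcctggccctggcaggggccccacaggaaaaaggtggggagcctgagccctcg
The Klf2 window held 1 match to the MEF2 consensus, CTAAATTTAG, 118 bases before the start, and the Klk10 window held 1, TTATAATTAG, 99 bases before it. No match stood in the windows of Klf4, Klk11 (either start) or Cytl1, while 2.6% of 32817 windows of this length in the table held one. CACCC or GGGTG stood 3 times in the Klk11 window shown and 0 times in that of its second RefSeq start, and 2 times each in those of Klk10 and Cytl1. They were in neither the Klf2 nor the Klf4 window, and 47.8% of all windows held one. A match is a description of the letters and not a bound site.

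There were 239 BEC from LCWE aortas and 217 from PBS aortas, with 2973056 and 1665902 UMIs in all and medians of 10121 and 5846 UMIs per cell. The class carried its own markers: all 7 blood endothelial markers were read in both libraries, at 6015 and 6589.8 CPM together, where CPM is the UMIs of a gene or list per 1000000 UMIs of the same cells, and every cell had at least 1 UMI of them. Single markers differed, with Pecam1 lower in LCWE (1833 and 4028 CPM), Vwf at 1241 and 1263, and Cdh5, Flt1, Emcn, Plvap and Tie1 higher. Flt1 was read in 81.6% of LCWE and 25.3% of PBS cells, and Emcn in 53.6% and 13.4%. The lymphatic list summed to 44.4 and 28.8 CPM. Leukocyte RNA differed between the libraries: 55 of the LCWE cells and 2 of the PBS cells had over 2 UMIs of leukocyte markers, and 48 and 7 had a UMI of Ptprc, the common leukocyte antigen. The 4 haemoglobin genes averaged 65.1 UMIs per cell in LCWE (median 14) and 0.535 in PBS (median 0). The 5 smooth muscle markers averaged 23.7 and 6.01, while their medians went the other way, at 1 and 4. They were read in 60.3% of LCWE cells and 97.2% of PBS cells, and the highest LCWE cell held 510 of their UMIs. The part of such RNA in the results was not tested, other than by leaving out the cells with Ptprc or over 2 leukocyte UMIs, and by leaving haemoglobin, mitochondrial and ribosomal protein genes out of the total, which kept the same lower members. Both libraries held 8 cell barcodes in common, of which 1 was that of a BEC cell.

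In BEC of LCWE aortas, the RNA of the kallikreins Klk10 and Klk11 stood 13.1-fold and 12.5-fold lower than in control aortas, Cytl1 6.42-fold and Thbd 2.84-fold. Nos3 was lower by a smaller factor, 1.69-fold. The transcription factors Klf2 and Klf4 were slightly lower when all UMIs were summed, and slightly higher when each cell counted alike. Of the 7 members, 4 (Thbd, Klk10, Klk11, Cytl1) were at least 2-fold lower with an interval that excludes 1, and none was that much higher. Among the 10319 genes whose UMIs in the 2 libraries came to 20 or more, 6.02% were that much lower and 10.7% that much higher. Since these values chose the members, nothing is read from that count.

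Klf2, the transcription factor at the head of the laminar flow programme, had 4576 UMIs in LCWE (1539 CPM) and 3274 UMIs in PBS (1965 CPM). The summed level was 1.28-fold lower in LCWE (1.22 to 1.34). The median cell, however, held 15 UMIs of Klf2 per 10000 UMIs in LCWE and 13.7 in PBS, and the middle range of cells lay between 6.93 and 24.6 in the first and between 6.55 and 24.2 in the second. The libraries overlapped almost wholly, and the sign of the difference depended on the weight of the deepest cells: the log2 ratio of LCWE to PBS was 0.09 from the mean over cells and -0.35 from the summed UMIs. The highest cell held 4.49% of the Klf2 UMIs of PBS and 2.62% of those of LCWE.

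Klf4, the related factor that shares many Klf2 targets, had 1833 UMIs (617 CPM) in LCWE and 1336 (802 CPM) in PBS, 1.3-fold lower (1.21 to 1.4). Its median cell held 3.95 and 4.24 UMIs per 10000. Its log2 ratio was 0.29 from the mean over cells and -0.38 from the summed UMIs, so for Klf4 too the direction turned with the weighting. Thinned to 3000 UMIs per cell, which leaves out 13 shallower cells of LCWE and 29 of PBS, Klf4 was read in 65.5% and 62.8% of cells and Klf2 in 89.8% and 91.0%. At the depth deposited the shares were 83.7% and 74.2% for Klf4, 96.2% and 95.4% for Klf2.

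Both factors moved with genes known to respond to tissue digestion. A list of 15 such genes (Fos, Jun, Egr1 and others) summed to 8692 CPM in BEC of LCWE and to 14301 CPM in PBS. Of these genes 3, Egr1, Zfp36 and Atf3, were at least 2-fold lower in LCWE, as were 6.02% of all measured genes. Fos, which had the most UMIs of the list, fell just short of that, at a log2 ratio of -0.99. Among the BEC at or below their library's median share of this list, Klf2 stood at 1178 CPM in LCWE (1120.1 to 1238) and 1103 in PBS (1019 to 1191), and Klf4 at 260 (233 to 289) and 239 (201 to 282), intervals that overlap. Among the BEC above that median, Klf2 stood at 1824 and 2433 CPM, and Klf4 at 898 and 1107, lower in LCWE with intervals that do not overlap. The part of this RNA in their levels was not tested further. In thinned cells the counts of Klf2 and Klf4 went together across cells, with Pearson's r of 0.46 over 226 cells of LCWE and 0.41 over 188 of PBS. These cells share their pool and digestion.

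Nos3, the endothelial nitric oxide synthase, had 813 UMIs (273 CPM) in LCWE and 768 UMIs (461 CPM) in PBS, 1.69-fold lower (1.53 to 1.86). The median cell held 2.46 UMIs per 10000 in LCWE and 4.2 in PBS. The middle ranges overlapped, at 1.06 to 4.95 and 2.47 to 6.09. In thinned cells Nos3 was read in 54.9% of LCWE (48.1 to 61.5) and 72.9% of PBS (65.9 to 79.1). The shares of T, NK and innate lymphoid cells, which should lack it, were 0.17% of 1764 thinned cells in LCWE and 0 of 70 in PBS. At the depth deposited the shares in BEC were 84.5% and 87.6%, since the LCWE cells were deeper.

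Thbd encodes thrombomodulin, the receptor that turns thrombin into an anticoagulant enzyme. It had 422 UMIs (142 CPM) in LCWE and 672 UMIs (403 CPM) in PBS, 2.84-fold lower (2.51 to 3.22). The median cell held 0.918 UMIs per 10000 in LCWE and 2.87 in PBS. In LCWE 85 cells had no UMI of Thbd and in PBS 45. Thinned, it was read in 37.2% (30.9 to 43.8) and 59.6% (52.2 to 66.7) of cells, against 0.68% of lymphocytes in LCWE and 0 of 70 in PBS. The log2 ratio was -1.51 from summed UMIs and -1.11 from the mean over cells. In thinned cells it was -0.88, short of 2-fold, so that 3 members instead of 4 passed the rule there.

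Klk10, a secreted member of the kallikrein family of serine proteases, had 162 UMIs (54.5 CPM) in LCWE and 1192 UMIs (716 CPM) in PBS, 13.1-fold lower (11.1 to 15.6). In LCWE 184 of 239 cells had none, and the highest cell held 8 UMIs. In PBS 40 of 217 had none, the median cell held 4 UMIs and the highest 43. Thinned, Klk10 was read in 15.9% of LCWE cells (11.4 to 21.4) and 71.3% of PBS cells (64.2 to 77.6), and in 0 of 1764 and 0 of 70 lymphocytes. The size of the difference depended on the weight of the deeper cells, with a log2 ratio of -3.71 from summed UMIs and -2.79 from the mean over cells.

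Klk11, its neighbour on chromosome 7, was the least abundant member, with 18 UMIs (6.05 CPM) in LCWE and 126 UMIs (75.6 CPM) in PBS, 12.5-fold lower (7.59 to 21.8). It was read in 13 cells of LCWE and 87 of PBS, and its log2 ratio was -3.64 from summed UMIs and -2.47 from the mean over cells. Thinned, the shares were 3.98% (1.84 to 7.42) and 25% (19.0 to 31.8). In PBS 30.6% of thinned cells with Klk10 also had Klk11 (22.9 to 39.1), against 11.1% of those without (4.19 to 22.6), so the intervals did not overlap. In LCWE the shares were 13.9% (4.67 to 29.5) and 2.11% (0.577 to 5.3), with intervals that overlap.

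Cytl1, a small secreted cytokine-like protein, was the most abundant member in control BEC. It had 4692 UMIs (1578 CPM) in LCWE and 16874 UMIs (10129 CPM) in PBS, 6.42-fold lower (6.21 to 6.63). In PBS 216 of 217 cells carried it, with a median of 67 UMIs per cell and a middle range of 42 to 99. In LCWE 63 of 239 cells had none, the median was 12 UMIs and the highest cell held 118. In LCWE the level was spread widely over cells, from 0 to 198 UMIs per 10000, and the most positive cells reached the PBS range. Thinned, 62.4% of LCWE cells (55.7 to 68.7) and 99.5% of PBS cells (97.1 to 100) were positive, against 0.794% of lymphocytes in LCWE and 4 of 70 (5.71%) in PBS. Of the thinned LCWE cells with Klk10, 97.2% also had Cytl1 (85.5 to 99.9), against 55.8% of those without Klk10 (48.4 to 63.0).

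**Figure D1:**
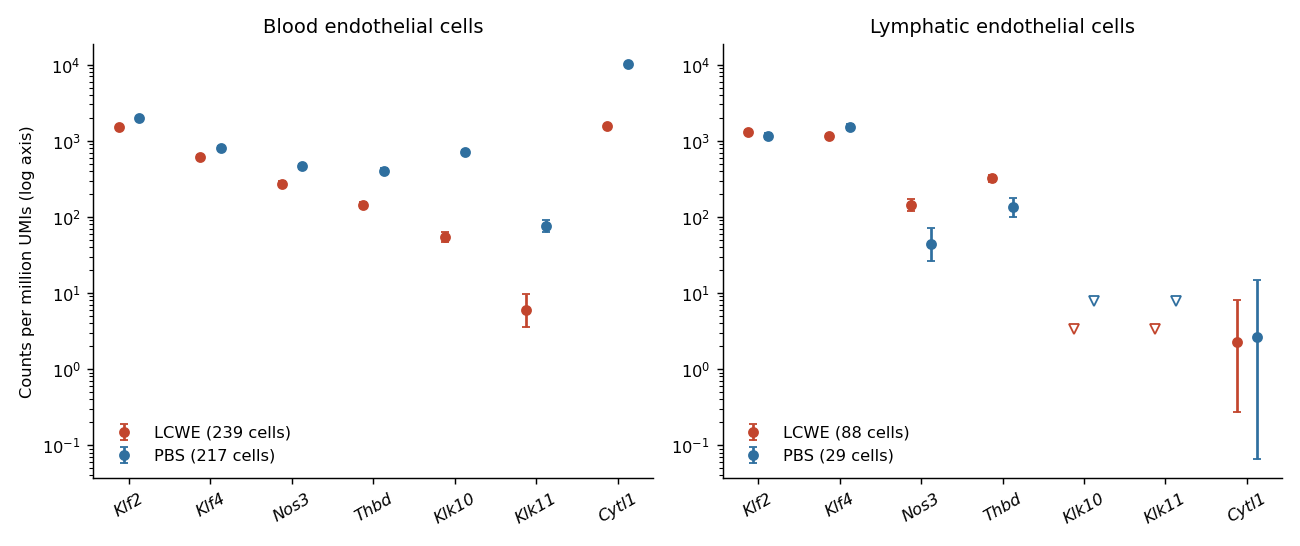
Level of each gene (CPM, log axis) in blood endothelial cells (left) and lymphatic endothelial cells (right) of the LCWE and the PBS library, with 95% Poisson intervals; open triangles mark 0 UMIs and stand at what 3 UMIs would give. Klk10, Klk11 and Cytl1 were lowest relative to PBS in BEC (54.5 and 716, 6.05 and 75.6, 1578 and 10129 CPM) and were at or near 0 in LEC, while the small summed difference of Klf2 and Klf4 turned its sign when each cell counted alike.

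**Figure D2:**
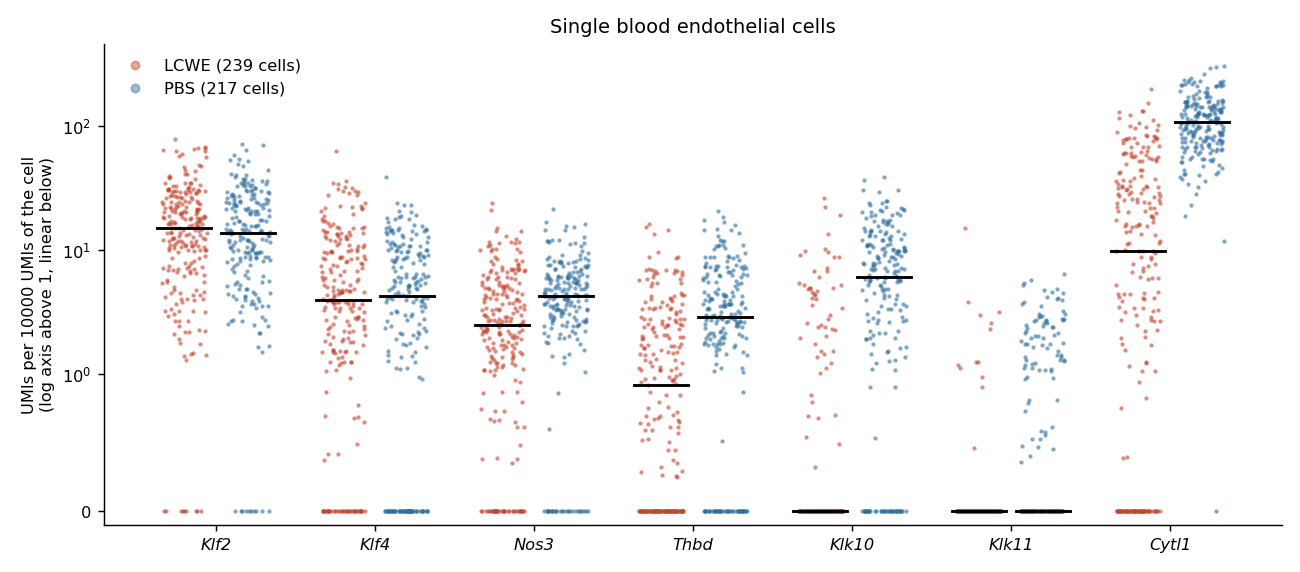
Level of each gene in single BEC (UMIs per 10000 UMIs of the cell, log axis above 1 and linear below), with 1 point for each of 239 LCWE and 217 PBS cells and a line at the median. The cells of both libraries overlapped for Klf2 and Klf4 (medians of 15 and 13.7, and of 3.95 and 4.24), while 63 LCWE cells and 1 PBS cell had no Cytl1.

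With all these genes ordered from the lowest ratio of LCWE to PBS in BEC, Klk10 stood at place 14, Klk11 at 17, Cytl1 at 53, Thbd at 266, Nos3 at 1087, Klf4 at 2405 and Klf2 at 2535 of 10319. The 2 transcription factors thus came last of the 7 in this order. The median log2 ratio of the 7 members was -1.51 and that of all measured genes 0.06.

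Leaving out cells that carried leukocyte RNA kept the same lower members. Without the cells that had a Ptprc UMI, the log2 ratio of Cytl1 was -2.59 and that of Thbd -1.3. The same 4 members were at least 2-fold lower when cells with a Ptprc UMI, with over 2 leukocyte UMIs, with over 10% mitochondrial UMIs or with a shared barcode were left out.

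By marker lists, more BEC of LCWE than of PBS lay outside the arterial side. Comparing in each cell the UMIs of 10 arterial and 6 venous endothelial markers, none of them a member, put 193 LCWE cells on the arterial side, 44 on the venous side and 2 on neither. Of the PBS cells, 212 were on the arterial side and 5 on the venous side. This split is a range and not a type: in 6 LCWE and 4 PBS cells the lists differed by at most 1 UMI. The venous list stood at 1071 CPM in LCWE and 385 in PBS, and the capillary list at 804 and 25.8. Of the 3183 venous UMIs in LCWE, Lrg1 held 1307, Selp 1073, Vcan 389, Ephb4 213, Nr2f2 118 and Ackr1 83. In PBS Lrg1 had 8 UMIs and Selp 515. Lrg1 was read in 64.4% of LCWE cells and 1.84% of PBS cells, and its part in the split was not tested. Whether a cell on the venous side was a venous cell was not tested.

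On the arterial side the members differed between the libraries about as much as in all BEC. That side held 193 of 239 LCWE cells and 212 of 217 PBS cells, so most cells are the same. The split did not weigh capillary markers, so cells that carry them can stand on this side. Klk10 stood at 64.2 CPM in LCWE and 686 in PBS, a ratio of 0.0936 (0.0786 to 0.111). Cytl1 stood at 1814 and 10208 CPM, a ratio of 0.178, and Klk11 at 7.0 and 76.7 CPM, a ratio of 0.0912. Thbd stood at 124 and 392 CPM, a ratio of 0.316, and Nos3 at 296 and 455, a ratio of 0.65. Klf2 and Klf4 had ratios of 0.819 and 0.718 from summed UMIs. The same 4 members passed the 2-fold rule here, where 5.89% of 10000 genes did in that direction.

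On the venous side of LCWE, the 44 cells held 2 UMIs of Klk10 and 1 of Klk11, at or under the floor of 3 UMIs, and Cytl1 at 502 CPM. Klf2 stood there at 1456 CPM, Nos3 at 169 and Thbd at 213. Klf4 was at 911 CPM, against 560.4 on the arterial side of the same library (intervals that do not overlap). The 5 PBS cells on that side held 92 UMIs of Klk10 and 512 of Cytl1.

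Clustering the BEC of both libraries on other genes, without the members or the arterial and venous lists, gave 8 clusters, most of them filled by 1 library. Cluster 1, led by Ly6c1, Ly6a and Pi16, was the one with at least 20 cells of both, 37 of LCWE and 43 of PBS. Clusters 3 and 4 held 24 and 63 LCWE cells and no PBS cell, while clusters 7 and 8 held 9 and 2 LCWE cells and 113 and 52 PBS cells. A cluster filled by 1 library may be that library rather than a kind of cell. In cluster 5, led by Cd52, Lyz2 and Tyrobp, 94.6% of cells had a Ptprc UMI.

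In cluster 1 the members parted. Klf2 stood at 3008 CPM in LCWE and 1764 in PBS, 1.71-fold higher (1.51 to 1.92), and Klf4 at 1015 and 559, 1.82-fold higher (1.47 to 2.25). Nos3 stood at 746 and 620.2 CPM, with an interval of the ratio from 0.966 to 1.5. Klk10 stood at 371 and 1156 CPM, a ratio of 0.321 (0.25 to 0.408), and Cytl1 at 6020.5 and 10431 CPM, a ratio of 0.577 (0.541 to 0.616). Thbd had a ratio of 0.658 (0.489 to 0.88). Klk11 had 10 and 23 UMIs and a ratio of 0.476 (0.202 to 1.04). Klk10 was the 1 member past the 2-fold rule, which 2.81% of 3848 measured genes passed in that direction. Within this cluster, then, Klf2 and Klf4 were on the opposite side of 1 from Klk10, Thbd and Cytl1, and the differences of the last 3 were smaller than in all BEC.

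The lowest levels of Klk10 and Cytl1 came from clusters with at most 1 PBS cell. Cluster 3, led by Igfbp7, Fabp4 and Col4a2, held 0 UMIs of Klk10, Klk11 and Cytl1 in 24 cells, where 3 UMIs would be 8.88 CPM. Yet it held Thbd at 338 CPM and Nos3 at 133. Its arterial list stood at 1489 CPM, its venous list at 1329.6 and its capillary list at 3802, so the arterial side can hold such cells. Cluster 4, led by Ctla2a, Thbs1 and Acta2, was the largest of LCWE; it held 1 UMI of Klk10, Cytl1 at 417 CPM and Thbd at 56.6. Cluster 6, led by Aqp1, Lrg1 and Fabp4, held 17 LCWE cells with no Klk10, the highest Klf4 of any cluster with at least 9 cells of a library (1957 CPM), and Cytl1 at 292 CPM. The LCWE cells in clusters with at least 20 PBS cells numbered 48 and held Klk10 at 393 CPM and Cytl1 at 6725. The other 191 held 16.1 and 995. Cells of PBS in the first set held 742 and 10413.

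Cluster 8, which held nearly only PBS cells and was led by Fos, Fosb and Egr1, had the highest Klf2 and Klf4 of PBS, at 2717 and 1270.1 CPM. Cluster 7, the largest of PBS, had 1249 and 394. Klk10 differed less between these, at 550.3 and 782 CPM, as did Nos3, at 413 and 456.

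**Figure D3:**
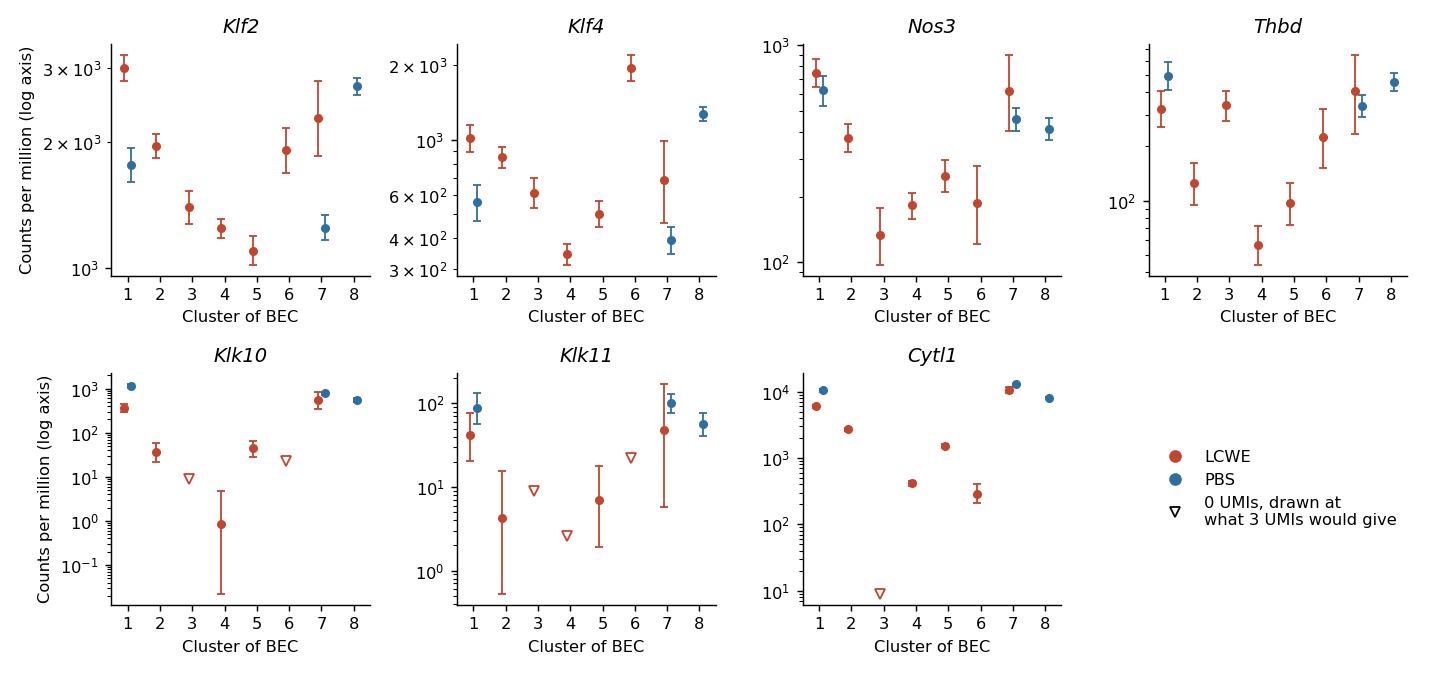
Level of each gene (CPM, log axis, a separate range in each panel) in the 8 clusters of BEC by library, for groups of at least 9 cells, with 95% Poisson intervals; open triangles mark 0 UMIs and stand at what 3 UMIs would give. In cluster 1 Klf2 (3008 and 1764) and Klf4 (1015 and 559) were higher in LCWE and Klk10 (371 and 1156) and Cytl1 (6020.5 and 10431) were lower, and clusters 3, 4 and 6 held at most 1 UMI of Klk10.

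LEC, the cells of the lymphatic vessels of the outer wall, numbered 88 in LCWE and 29 in PBS, and carried the 7 lymphatic markers at 22333 and 28110.1 CPM together. Lymph flows slowly and without the pulse of an artery. No UMI of Klk10 or Klk11 was read in them in either library, which, at 3 counts, allows a share of cells with a UMI of up to 3.41% in LCWE and 10.3% in PBS; a cell without a UMI may still express the gene. Cytl1 had 2 UMIs in LCWE and 1 in PBS. Against a floor of 3 UMIs, Klk10 was 16.1-fold lower in LEC than in BEC in LCWE and 90.9-fold lower in PBS. The intervals reach down to 12.9-fold and 73.8-fold. For Klk11 the floor gives 1.79-fold in LCWE and 9.61-fold in PBS, with intervals down to 1.31-fold and 7.7-fold.

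The other members were shared by both kinds of endothelium. Klf2 in LEC stood at 1321 CPM in LCWE and 1159.6 in PBS, and Klf4 at 1164 and 1524. Within LCWE, Klf4 was 1.89-fold higher in LEC than in BEC (1.75 to 2.04) and Thbd 2.25-fold higher (1.93 to 2.62), while Nos3 was 1.91-fold lower (1.58 to 2.32) and Klf2 1.16-fold lower (1.09 to 1.24). Nos3 in LEC stood at 143 CPM in LCWE (127 UMIs) and 44.6 in PBS (17 UMIs), and Thbd at 319.6 (283 UMIs) and 134 (51 UMIs). By summed UMIs those 2 members were thus higher in LCWE than in PBS in LEC and lower in BEC. The difference between the classes was not tested. Nos3 and Thbd were the 2 of 4 measured members that passed the 2-fold rule in LEC, where 5.47% of 7296 genes did in that direction. The 29 PBS cells limit this comparison, and 5 smooth muscle markers averaged 98.5 UMIs per cell in them (median 4) against 2.27 in LCWE, the part of which was not tested.

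Across the classes, 3 patterns stood out. Klk10, Klk11, Cytl1 and Nos3 were held by BEC. In LCWE and PBS, BEC held 91.5% and 93.9% of all UMIs of Klk10, 94.7% and 95.5% of those of Klk11, 90.8% and 94.5% of those of Cytl1, and 75.3% and 88.8% of those of Nos3. These shares also depend on how many BEC each library caught. The BEC of PBS and then of LCWE led the order of 29 class levels (a class with at least 20 cells in a library) for each of these genes, with intervals that do not overlap. In Nos3 the LEC of LCWE came next, at 143 CPM, and were apart from the LEC of PBS.

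Thbd and Klf4 were shared with fibroblasts. Fibroblasts, 813 in LCWE and 868 in PBS, held 49.6% and 52.9% of all Thbd UMIs and 51.6% and 54.0% of Klf4 UMIs. Their Klf4 stood at 1064 and 1823 CPM, above BEC in both libraries, and in PBS it was the highest class level of Klf4. Thbd in fibroblasts stood at 107 and 224 CPM, 2.1-fold lower in LCWE (1.94 to 2.28), and Klf2 at 421 and 964 CPM, 2.29-fold lower (2.2 to 2.38). Cytl1 there stood at 7.91 and 24.2 CPM, 3.05-fold lower (2.31 to 4.07). These 3 members passed the 2-fold rule in fibroblasts, which 7.08% of 12357 genes passed in that direction. Thbd was thus lower in LCWE in fibroblasts as well as in BEC. The summed Klf2 differed more in fibroblasts (2.29-fold) than in BEC (1.28-fold), with intervals that do not overlap.

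Klf2 was read in every class with at least 20 cells. It was highest in BEC of PBS (1965 CPM), then BEC of LCWE (1539) and LEC, and next came fibroblasts of PBS (964) and eosinophils of LCWE (884), whose intervals overlapped. The smooth muscle class VSMC_1, with 93 and 4141 cells, held it at 468 and 618 CPM, and so held 76.5% of all Klf2 UMIs of PBS. Among lymphocytes, Klf2 is known for keeping naive T cells in circulation. Naive CD8 T cells of LCWE held it at 697 CPM and activated CD8 T cells at 226. Naive CD4 T cells of LCWE stood at 503 CPM, and the class of regulatory and activated CD4 T cells at 206. B cells of LCWE, with a median of 2818 UMIs per cell, had a Klf2 UMI in 53.1% of cells. Klf4 stood at 223 and 132 CPM in VSMC_1 of LCWE and PBS. It was higher in gamma-delta T cells (698 CPM) and the Mac1 class (507 CPM) than in naive CD4 T cells (122 CPM) of LCWE.

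**Figure D4:**
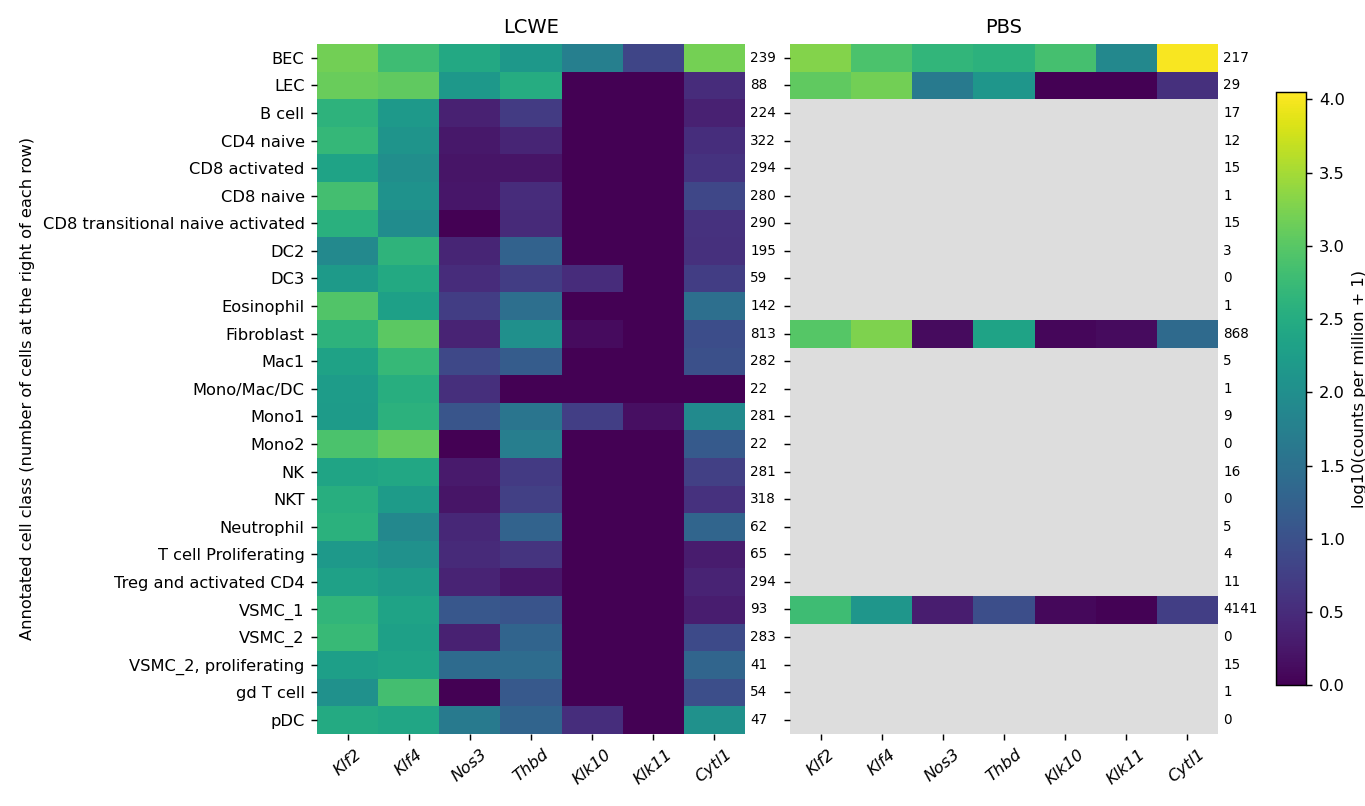
Level of each gene, as log10 of CPM plus 1, in every annotated class with at least 20 cells in a library; the number of cells stands at the right of each row and grey marks classes with under 20 cells. Klk10 and Klk11 were held by BEC in both libraries, Thbd and Klf4 also by LEC and fibroblasts, and Klf2 by every class shown.

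Few cells outside BEC carried most of the Cytl1 found there. In LCWE, 13 of 4852 such cells had at least 10 UMIs of Cytl1 and together held 68.7% of the Cytl1 UMIs outside BEC; all 13 also had a Pecam1 UMI and 9 a Ptprc UMI. In PBS, 8 of 5169 cells did and held 60.6%; 6 had Pecam1 and 5 Ptprc. A cell annotated Mono1 in LCWE held 127 Cytl1, 61 Pecam1 and 9 Klk10 UMIs. One annotated NK in PBS held 52 of Cytl1 and 33 of Pecam1, out of 57 Cytl1 UMIs in all T, NK and innate lymphoid cells of that library. Most of these cells thus carried endothelial RNA, while 2 of the PBS cells, annotated fibroblast and proliferating VSMC_2, had no UMI of Pecam1, Cdh5 or Nos3. That Mono1 cell held 127 of the 183 Cytl1 UMIs of its class, whose level of 85.3 CPM thus rests largely on it.

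The genes whose level was most like each member over 24 class levels (classes with at least 50 cells in a library, Pearson's r of log2 of CPM plus 10) are given as a description; the points share 2 libraries and their free RNA. Klk10 was closest to Adh7 (r of 0.994), Serpina1b (0.989) and Gkn3 (0.98), and Klk11 to Adra2a (0.994), Klk10 (0.978) and Adh7 (0.966). Cytl1 was closest to Ptprr (0.967), Fam107a (0.964) and Myrip (0.963). The class levels include BEC of both libraries, so the choice of these neighbours largely fixes their direction there, with Adh7 at 73.7 and 712 CPM, Gkn3 at 194 and 935, Adra2a at 12.1 and 241, and Ptprr at 59.5 and 155. Nos3 was closest to Myct1 (0.988), Mall (0.988) and Podxl (0.987). Among the genes near Thbd were Ramp2 (0.94) and Cpne8 (0.927). Klf4 was closest to Rgl1 (0.879), Ang (0.862) and Epb41l2 (0.852), and Klf2 to Ephx1 (0.825), Sptan1 (0.815) and Txnip (0.814). The nearest gene had a lower r for Klf2 and Klf4 than for the other 5 members.

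The rest of the flow pathway was read in lists. Of 20 genes that sense flow or carry its signal to Klf2 and Klf4, all measured in BEC, 2 were at least 2-fold higher in LCWE and 1 lower. These counts were near the shares of all measured genes, 10.7% higher and 6.02% lower. The median log2 ratio of the list was 0.07, against 0.06 for all measured genes. The higher 2 were Plxnd1, a semaphorin receptor that senses flow, at 358 and 148 CPM, and Kdr, the main VEGF receptor, at 147 and 4.8 CPM. The lower one was Pecam1, an adhesion molecule at cell junctions, at 1833 and 4028 CPM. Kdr is also a marker of capillary cells, and the 8 Kdr UMIs of PBS leave its ratio imprecise.

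Of 20 genes listed for laminar flow, 18 were measured, of which 6 were lower in LCWE and 2 higher. The median log2 ratio of this list depended on the weighting of cells, at -0.43 from summed UMIs, -0.16 from thinned cells and 0.0 from the mean over cells. Ptgis, the prostacyclin synthase, stood at 132 CPM in LCWE and 702 in PBS. Sod3, an extracellular superoxide dismutase, stood at 144 and 525 CPM, and Tek, the angiopoietin receptor, at 253 and 607. The other 3 lower genes were Ptgs1, Ass1 and Cyp1b1. The higher 2 were the water channel Aqp1, at 296 and 33.0 CPM, and Hmox1, a haem-degrading enzyme, at 42.7 and 3.0 CPM. Of 20 genes listed for disturbed flow, 19 were measured, of which 7 were higher in LCWE and 1 lower. Their median log2 ratio was 0.44, which was 0.79 without cells that had a Ptprc UMI and 0.29 from thinned cells. Thbs1, a matrix glycoprotein, stood at 1018 and 429.8 CPM, and Hif1a, the hypoxia-inducible factor, at 241 and 65.4. The lower one was the adhesion molecule Icam2, at 324 and 912 CPM. Of the 11 that passed neither way, Vcam1, Bmp4, Icam1, Cyr61 and Rela were lower, with log2 ratios from -0.92 to -0.32. Edn1, Selp, Tgfb2, Nfkb1, Ctgf and Il1r1 were higher, from 0.22 to 0.8, with an interval that includes 1 for Tgfb2. How the genes of either list respond to flow was not tested. In the laminar list lower genes outnumbered higher ones, and in the disturbed list the reverse held; of all measured genes 6.02% were lower and 10.7% higher.

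Of 17 Klf genes, 11 were measured in BEC and 2 were at least 2-fold lower in LCWE: Klf9, a glucocorticoid-responsive factor, at 108 and 265 CPM, and Klf8 with 12 and 21 UMIs. Klf6 stood at 284 and 292 CPM and Klf7 at 261 and 371. Klf13, Klf3, Klf10, Klf16 and Klf11 had log2 ratios from -0.41 to 0.16. Of 26 Klk genes, 4 were measured and all 4 were lower, of which Klk10 and Klk11 were chosen with their values known. The others were Klk8, with 86 UMIs in LCWE and 256 in PBS (28.9 and 154 CPM), and Klk13, with only 6 and 17 UMIs. Of 16 genes of endothelial identity, all measured, 5 were higher (Eng, Emcn, Flt1, Kdr, Robo4) and 2 lower (Pecam1 and Tek), with a median of 0.23. Emcn, which marks venous and capillary cells, stood at 405 and 63.6 CPM, and Eng at 667 and 304. Of all measured genes, 6.02% were at least 2-fold lower and 10.7% at least 2-fold higher.

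**Figure D5:**
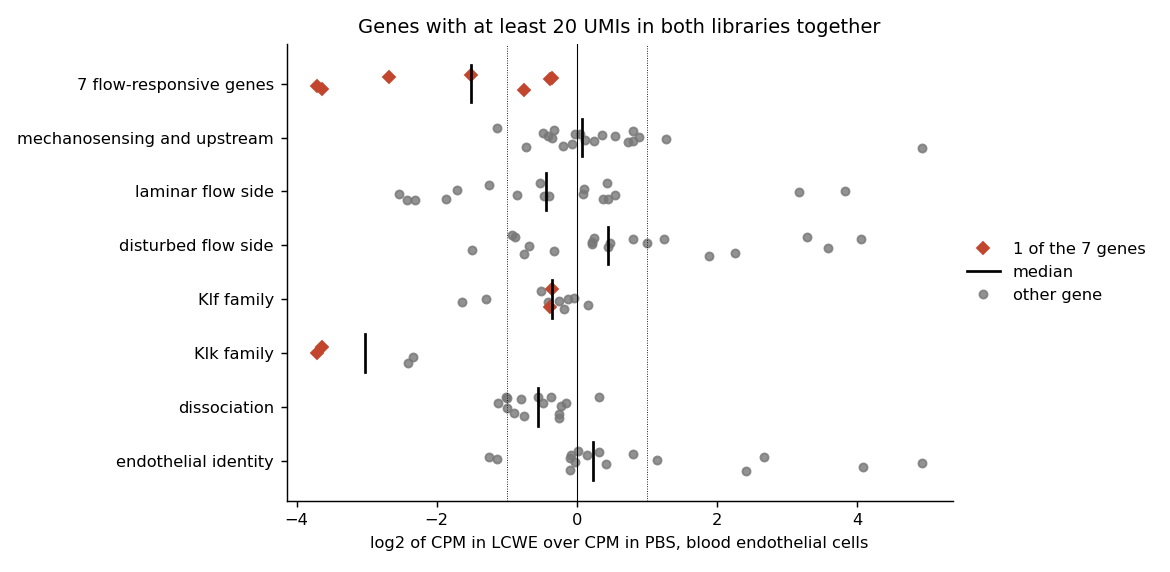
Log2 of the CPM in LCWE over that in PBS in BEC by list, for genes with 20 UMIs or more in all; diamonds are the 7 members, circles other genes, vertical strokes the medians, and dotted lines 2-fold. The medians from summed UMIs were -1.51 for the 7 members, -0.43 for the laminar list (0.0 from the mean over cells) and 0.44 for the disturbed list, and the small difference of Klf2 and Klf4 turned its sign when each cell counted alike.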

How the data were processed

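UMI counts per gene and cell were deposited by the authors in 1 table per library with no normalization, after Cell Ranger 3.0.2 against mm10, per the submitters' processing notes. The percent of mitochondrial UMIs and the cell classes come from the table of cells that the authors deposited; the totals and percents recomputed from the counts matched it in all 10477 cells (percents within 0.01). Cells that the authors called dead or doublets are not listed, and no further doublet call was made. The 7 members and all lists were chosen with earlier results of these data known.

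Per class and library, the UMIs of a gene were added up and divided by all UMIs of the same cells, times 1000000 (CPM). Intervals are exact: Poisson for CPM, conditional binomial for ratios and Clopper-Pearson for shares, and PCR and pooling of animals add error that they do not hold. Those of CPM and of ratios take UMIs as independent, so they do not hold the spread among cells either. A gene counted as higher or lower where its ratio reached 2-fold and its interval excluded 1. The floor for a ratio was 3 UMIs. Shares were compared after thinning each cell to 3000 UMIs without replacement. BEC were clustered with scanpy 1.11.5 on 2000 variable genes (20 components, 15 neighbours, resolution 0.5). From each list, up to 4 of the genes past the rule with most UMIs are described, or 2 where none passed. Hmox1, Ptgs1, Ass1, Cyp1b1, Flt1, Kdr and Robo4 among identity genes, Klf8 and Klk13 are named beyond that rule, after their values were seen. So are Fos, the disturbed-flow genes that passed neither way and the single venous and blood endothelial markers. Other Klf and Klk genes were named with at least 50 UMIs in BEC, and the 3 nearest genes of each member among those with at least 200 UMIs. Some genes that these rules would name are not reported here. The ratio and its interval were tested on simulated counts, drawn as Poisson counts of the summed BEC. That is the assumption of the interval itself, so this does not test it against the spread among cells. All cells held 42275754 UMIs in LCWE (5091 cells) and 62600808 in PBS (5386 cells), with 1613 to 47579 and 1671 to 41518 per cell.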

Additional observations from a re-analysis of the deposited data

Results flagged for a closer look

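For 3 members the summed UMIs of the 2 kinds of endothelium moved in opposite directions between the libraries. The CPM ratio of LCWE to PBS for Thbd was 2.39 in LEC and 0.352 in BEC, that for Nos3 was 3.22 in LEC and 0.593 in BEC, and that for Klf2 was 1.14 in LEC and 0.783 in BEC. The difference between the ratios was not tested, because each group is 1 library. The Klf2 ratio in BEC crosses 1 when each cell counts alike. In LEC thinned to 3000 UMIs, Klf2 averaged 3.33 UMIs per cell in LCWE and 3.96 in PBS, lower in LCWE. Nos3 (0.341 and 0.111) and Thbd (1.19 and 0.593) had higher means in LCWE there, but only 3 of 27 PBS cells held Nos3. The shares of cells with a UMI had intervals that overlap. For Nos3 they were 21.2% (13.1 to 31.4) and 11.1% (2.35 to 29.2), and for Thbd 54.1% (43.0 to 65.0) and 37.0% (19.4 to 57.6). The opposite directions of Klf2 thus hold for summed UMIs only. The LEC of PBS were 29 cells with 17 Nos3 and 51 Thbd UMIs.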

How the results depend on the processing

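No paired analysis was possible because each group is 1 library and the labels give no replicate number. Of the 11 alternatives tried for the 4 members at least 2-fold lower in BEC, 9 gave the same 4, while thinned cells and the class with LEC included gave 3, without Thbd. Values below are log2 ratios of LCWE to PBS unless said otherwise. As the mean over cells, Klf2 was 0.09, Klf4 0.29, Nos3 -0.42, Thbd -1.11, Klk10 -2.79, Klk11 -2.47 and Cytl1 -2.19. The mechanosensing list then had 4 genes higher and 0 lower, and the disturbed list 2 lower. Thinned to 3000 UMIs, Klf2 was 0.03, Klf4 0.25, Nos3 -0.33, Thbd -0.88, Klk10 -2.98, Klk11 -2.73 and Cytl1 -2.22, with 0 mechanosensing and 2 disturbed genes lower. Without cells that had a Ptprc UMI, Klf2 and Klf4 were -0.21, Thbd -1.3 and Cytl1 -2.59, with 2 disturbed genes lower. Cytl1 was -2.79 without cells over 10% mitochondrial UMIs and -2.62 without mitochondrial, ribosomal and haemoglobin genes in the total. With LEC included, Klf2 was -0.29, Thbd -0.95 and Cytl1 -2.76. The median of the laminar list, -0.43 as reported, was 0.0 as the mean over cells, -0.16 thinned, -0.16 without Ptprc cells and -0.15 with no filter on UMIs; that of the disturbed list, 0.44 as reported, was 0.79 without Ptprc cells and 0.18 with LEC included. Alternatives chosen after seeing the data left out cells with over 2 leukocyte UMIs (Klf2 -0.2, Klf4 -0.26, Nos3 -0.6, Thbd -1.23, Cytl1 -2.52) or split BEC at the median of the dissociation list: Klf2 was 0.1, Klf4 0.12 and Nos3 -0.52 below it, and Nos3 was -0.97 and Cytl1 -2.76 above it.

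The share of thinned cells with a UMI, LCWE minus PBS, was -18.0 percentage points for Nos3 and -3.1 not thinned, -22.4 for Thbd and -40.1 at 5000 UMIs, -21.0 for Klk11 and -34.7 not thinned, and -37.1 for Cytl1 and -25.9 not thinned. Against the arterial side, cluster 1 gave 0.77 for Klf2, 0.86 for Klf4, 0.27 for Nos3, -0.6 for Thbd, -1.64 for Klk10, -1.07 for Klk11 and -0.79 for Cytl1. The cause of these shifts was not tested. Clusters of the authors below the annotated classes were not analysed here. Klk11 rests on 18 UMIs in LCWE, so differences within its cells are not detectable at this depth.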
